A study of Rattus norvegicus with 9 samples.

Results

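The Id genes and their surrounding pathway of bone morphogenetic protein (BMP) signalling were followed in rat gastric lymphatic vessels as a set of 10 genes out of 18964 in the count table. The set holds the 4 Id genes Id1, Id2, Id3 and Id4, the inhibitory Smads Smad6 and Smad7, the ligands Bmp2 and Bmp4, and the receptors Bmpr2 and Acvrl1. Members were taken by gene symbol, and each symbol was found once. They were chosen by their fold changes and levels in these same 9 libraries, with all 3 comparisons known, so their own differences are given as a description, with no p-values. All 10 passed the filter on low counts.

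BMPs are secreted dimers that bring together type I and type II receptor kinases at the cell surface. The type I receptor then phosphorylates Smad1, Smad5 and Smad9, which join Smad4, enter the nucleus and switch on target genes, the Id genes among the best known. Id proteins have a helix-loop-helix domain but no DNA-binding region, so they tie up E proteins in pairs that cannot bind DNA and thereby hold back differentiation. In blood and lymphatic endothelium, BMP9 and BMP10 act through Acvrl1, also called ALK1, and in smooth muscle BMP4 acts through Bmpr2.

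Messenger RNA came from vessels of wild type Sprague-Dawley rats, all males, weighing 180 to 220 g and fasted for 12 h. Rats of the BXD group were kept for 4 h in water 15 cm deep at 22 °C, a stress procedure that produces gastric ulcers, and 30 min later received Banxia Xiexin decoction, a Chinese herbal mixture, by gavage at 10 ml per kg. Rats of the model group went through the same stress and received a gavage without the decoction, given as distilled water in the protocol and as saline in a sample label. Rats of the control group were fasted, not stressed, and given distilled water. Each group had 3 libraries. The study had 6 rats a group, and the labels do not tie libraries to rats, so the spread between libraries is the only error available and may be partly technical.

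Total estimated counts per library ran from 12313813 to 13455705. Markers of lymphatic endothelium were present in every library, with 10 of 10 above 0 counts in each. Their summed level, over the 9 that passed the filter, was 1321 to 1908 CPM (counts scaled to library size, with trimmed means of M-values) in BXD, 851 to 1531 in model and 940 to 1088 in control. Blood endothelium, smooth muscle, fibroblast and fat markers were also present, so the vessels were sequenced with the tissue around them, while 0 of 10 gastric mucosa markers passed the filter. In such bulk tissue, fewer cells of a type and less RNA per cell cannot be told apart. BXD replicates 1 and 3 stood apart from the rest: 8 transcripts of striated muscle, listed after the data were seen, summed to 5981 and 3500 CPM there, against 60.7 CPM in BXD replicate 2, 19.8 to 374 CPM in model and 29.4 to 36.8 CPM in control. The members' differences of BXD from model and control are therefore given with and without these replicates. For the pathway genes, values and calls of BXD rest on all 3 libraries unless stated. Those calls are not shown to hold without replicates 1 and 3, where only BXD replicate 2 is left. The part of muscle transcripts in these results was not tested.

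The 250 bases before the start of the gene are shown for Id4 and Bmp4, whose BXD libraries lay above all model libraries, and for Id3 and Id1, the most abundant Id genes, whose ratio set the control group apart. The RefSeq promoter table, on build GRCr8, held 7 of the 10 members. The windows lie at chr17:16598294-16598543 on the minus strand for Id4, chr15:22101934-22102183 on the minus strand for Bmp4, chr5:153656041-153656290 on the plus strand for Id3 and chr3:161671314-161671563 on the plus strand for Id1. Capitals mark matches on either strand to the motifs searched, which were the Smad motifs GGCGCC and GTCTG, the E-box CANNTG and the TATA box TATAAA.
Id4: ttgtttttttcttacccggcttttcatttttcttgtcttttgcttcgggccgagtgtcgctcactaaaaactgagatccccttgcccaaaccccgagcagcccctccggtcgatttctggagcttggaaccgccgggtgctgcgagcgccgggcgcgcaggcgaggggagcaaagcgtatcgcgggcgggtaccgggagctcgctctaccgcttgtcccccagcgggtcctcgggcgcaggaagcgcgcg
Bmp4: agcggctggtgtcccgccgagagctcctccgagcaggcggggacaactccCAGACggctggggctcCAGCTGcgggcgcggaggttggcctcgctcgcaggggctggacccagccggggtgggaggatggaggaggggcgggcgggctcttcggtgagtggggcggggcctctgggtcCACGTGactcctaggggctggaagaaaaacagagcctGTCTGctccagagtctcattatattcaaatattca
Id3: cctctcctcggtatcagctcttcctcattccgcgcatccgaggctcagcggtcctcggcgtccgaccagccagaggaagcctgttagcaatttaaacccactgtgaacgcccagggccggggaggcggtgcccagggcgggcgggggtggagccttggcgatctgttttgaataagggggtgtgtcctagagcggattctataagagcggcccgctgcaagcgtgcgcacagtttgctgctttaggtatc
Id1: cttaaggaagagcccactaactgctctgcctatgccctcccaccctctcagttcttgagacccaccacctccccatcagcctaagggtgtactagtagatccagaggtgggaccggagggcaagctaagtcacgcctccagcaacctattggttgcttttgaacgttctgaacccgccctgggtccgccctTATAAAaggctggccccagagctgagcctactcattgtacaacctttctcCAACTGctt
The Bmp4 window held 2 matches to GTCTG, 200 and 35 bases before the start, and 2 E-boxes. The Id1 window held a TATA box 59 bases before the start and 1 E-box close to the start. No match to these letters lay in the Id3 and Id4 windows. Over 33469 rat promoters of the same length, GTCTG was found in 42.9%, the E-box in 65.5%, the TATA box in 12.9% and GGCGCC in 8.69%. No printed match overlapped a match to another motif. The windows were rich in G and C, with 62.8% for Id4, 66.4% for Bmp4, 61.2% for Id3 and 54.8% for Id1, beside a median of 51.2% over all promoters.

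A few patterns ran through the set. Id3 and Acvrl1 were lower in the stressed libraries of both groups than in control. Id4 was higher with the decoction than in either other group. Bmp4 was lower in model than in both other groups. A quasi-likelihood model was fitted to all 14643 genes that passed the filter (edgeR), and a gene is said to be called where its Benjamini-Hochberg adjusted p over all of them was under 0.05. Counts of listed genes at an unadjusted p under 0.05 are given further below without the share of all genes at that threshold, so nothing is read from them. For BXD over model, 1 of the 10 members was called, Id4, beside 0.0615% of all genes, 0.0546% higher and 0.00683% lower. For BXD over control, 4 of 10 were called, with Id4 and Bmpr2 higher and Id3 and Acvrl1 lower, beside 30.3% of all genes, 16.1% higher and 14.3% lower. For model over control, 5 of 10 were called, with Smad7 and Bmpr2 higher and Id3, Bmp4 and Acvrl1 lower, beside 42.2% of all genes, 21.6% higher and 20.6% lower. With scaling by library size alone the split over all genes was 9.36% higher and 24.6% lower for BXD over control, and 11.1% higher and 33.5% lower for model over control. Upper quartile scaling gave 12% and 20.2%, and 16.2% and 26.7%. The counts of called members fell to 0 for BXD over model without any 1 control or model library or without BXD replicate 3, to 2 for BXD over control without any 1 control library, and to 2 or 3 for model over control without any 1 control or model library. Since the choice of members used these comparisons, nothing is read from the counts. The groups did not overlap for 2 of 10 members between BXD and model, 5 between BXD and control and 7 between model and control, beside 22.4%, 48.6% and 58.3% of all genes. The comparisons share libraries and are not independent of each other.

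**Figure D1:**
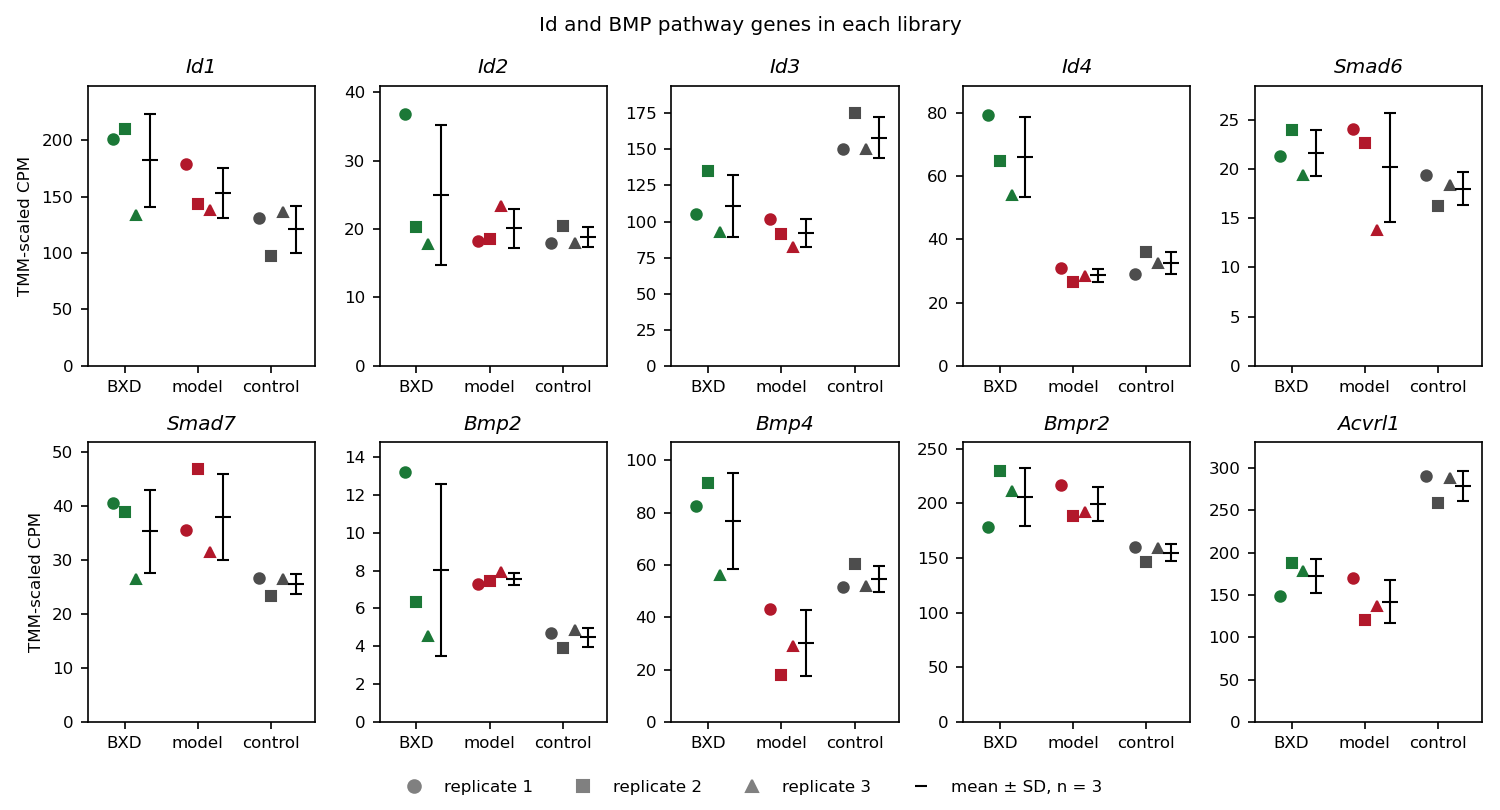
Level of each of the 10 genes in every library, in CPM scaled by trimmed means of M-values on axes that start at 0, with the mean ± SD of the 3 libraries beside each group. All 3 BXD libraries of Id4 lie above the other 6, and all 3 control libraries of Acvrl1 and Id3 lie above the other 6.

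**Figure D2:**
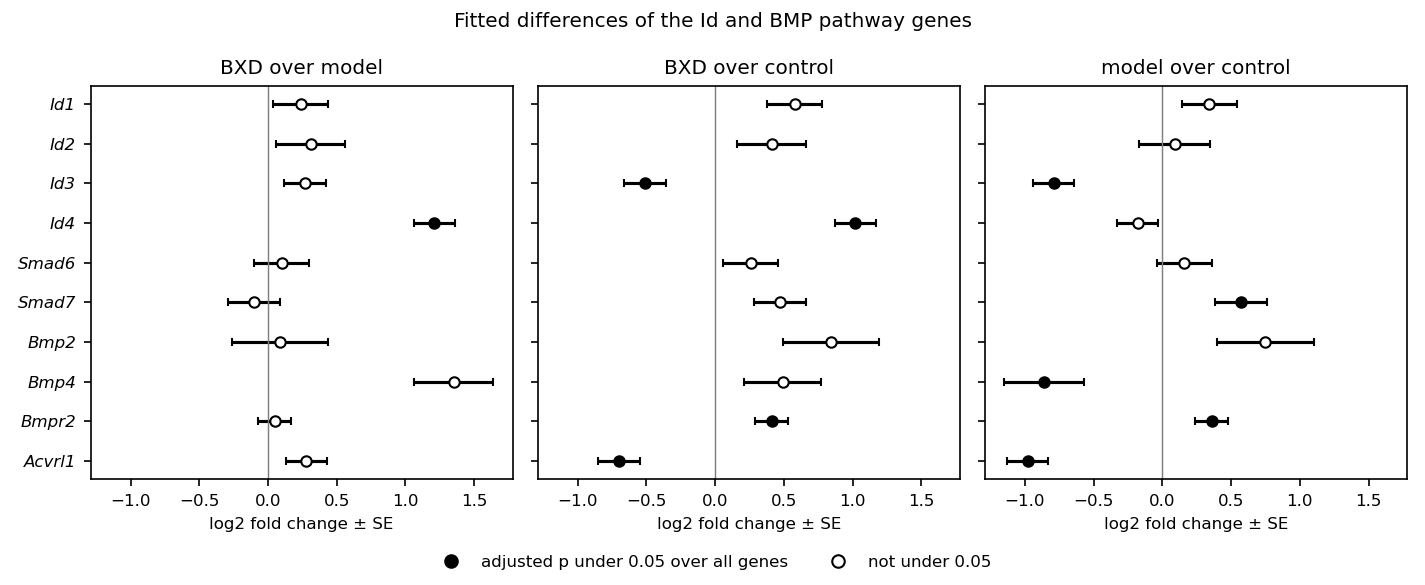
Log2 fold change ± SE of the 10 genes in the 3 comparisons, with filled points where the adjusted p over all genes was under 0.05. Id4 stands at 1.21 for BXD over model, Acvrl1 at -0.98 and Id3 at -0.79 for model over control.

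Within a group, Id1 and Id3 were the most abundant members per length, on the length-scaled unit TPM of the deposited table. In BXD libraries Id1 led at 356 ± 85.7 TPM and Id3 followed at 223 ± 46.1 TPM, with overlapping values (SD, n = 3). In model libraries Id1 led at 271 ± 43.3 TPM, above Id3 at 166 ± 18.7 TPM without overlap. Control libraries had the other order, with Id3 at 388 ± 46.1 TPM above Id1 at 291 ± 44 TPM, again without overlap. Acvrl1 came next in control, at 122 ± 2.78 TPM, but stood behind Id2, Bmp4 and Id4 in BXD at 62.1 ± 7.88 TPM and behind Id2 in model at 46.7 ± 10.3 TPM, each with values that overlapped its nearest neighbours above. Bmpr2, Smad7, Smad6 and Bmp2 made up the low end of the order in every group. Smad6 and Smad7 overlapped each other in every group. Bmp2 was lowest, at 4.47 ± 2.56 TPM in BXD, 3.9 ± 0.608 TPM in model and 3.11 ± 0.412 TPM in control, and rested on 60 to 158 estimated counts per library.

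Id3, one of the Id proteins that endothelium uses during vessel growth (gene 25585, chromosome 5, 154489603 to 154491172 on Rnor_6.0), had 105, 135 and 92.8 CPM in BXD libraries, 102, 91 and 82.4 CPM in model libraries, and 150, 175 and 150 CPM in control libraries. The 6 stressed libraries all lay below the 3 control libraries, and BXD overlapped model. Its log2 fold change was 0.27 (SE 0.15) for BXD over model, -0.51 (SE 0.15) for BXD over control and -0.79 (SE 0.15) for model over control, so Id3 was 1.72-fold lower in model than in control. Without BXD replicates 1 and 3 the differences of BXD were 0.55 from model and -0.23 from control, both not called.

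Id4, the family member best known from neural and mammary development (gene 291023, chromosome 17, 16692557 to 16695126), had 79.4, 64.7 and 54.1 CPM in BXD libraries, 30.8, 26.6 and 28.5 CPM in model libraries, and 29, 36 and 32.6 CPM in control libraries. Every BXD library was above all other libraries, and model overlapped control. The log2 fold change was 1.21 (SE 0.15), or 2.31-fold, for BXD over model, 1.02 (SE 0.15), or 2.03-fold, for BXD over control and -0.18 (SE 0.15) for model over control. In BXD replicate 2, where the striated muscle transcripts summed to 60.7 CPM, Id4 stood at 64.7 CPM, between the other BXD libraries. Fitted without BXD replicates 1 and 3, the difference from model was 1.18, no longer called, and the difference from control was 1.00, still called. The call against model was also lost in 9 of the 18 alternatives tried, among them each that left out a model or control library, while the value stayed between 1.05 and 1.33.

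Smooth muscle markers were higher in BXD than in model, as Id4 was. The summed level of 9 of them was 5741 to 8942 CPM in BXD, 1899 to 3461 CPM in model and 4090 to 6352 CPM in control, and 0 of the 9 were called for BXD over model by edgeR, with 8 of 9 at an unadjusted p under 0.05, all higher in BXD. DESeq2 called 7 of the 9, and limma on log2(FPKM + 0.1) called 0. Their median log2 fold change was 1.29 for BXD over model, 0.50 for BXD over control, with 1 called higher, and -0.79 for model over control, with 5 called lower. Of all genes 16.1% were called higher for BXD over control and 20.6% lower for model over control. Id4 stood at 1.21, 1.02 and -0.18, and for model over control it was not called. In 3 of 18 alternatives, library size alone and both limma fits, Id4 was called lower in model than in control. Over the 18 that value ran from -0.46 to -0.12. Per 1000 TPM of these markers, Id4 stood at 10.1, 11.2 and 10.2 TPM in BXD libraries, 9.78, 15.8 and 11 TPM in model libraries, and 6.96, 10.6 and 5.91 TPM in control libraries. On that scale the BXD range lay within the model range. BXD and control overlapped on it too, with 1 control library above 2 of the BXD libraries.

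Id1, an immediate target of BMP9 in endothelium (gene 25261, chromosome 3, 148214623 to 148216715), had 201, 210 and 134 CPM in BXD libraries, 179, 143 and 138 CPM in model libraries, and 131, 97.5 and 136 CPM in control libraries. BXD overlapped both other groups through replicate 3, and model lay just above control. The log2 fold change was 0.24 (SE 0.20) for BXD over model, 0.58 (SE 0.20) for BXD over control and 0.34 (SE 0.20) for model over control, with no call in the 3 comparisons. The authors' deposited table, from DESeq2, gives 0.60 for BXD over control with a q-value under the 0.05 threshold, and DESeq2 here called it too. Without BXD replicates 1 and 3 the differences of BXD were 0.45 from model and 0.79 from control, both not called.

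Id2, an Id protein with roles in lymphoid and fat cells (gene 25587, chromosome 6, 44360077 to 44361908), had 36.8, 20.3 and 17.8 CPM in BXD libraries, 18.2, 18.5 and 23.4 CPM in model libraries, and 18, 20.5 and 17.9 CPM in control libraries. All groups overlapped, and BXD replicate 1 was the 1 library that stood out. Without BXD replicates 1 and 3 the difference of BXD from model was 0.02, against 0.31 (SE 0.25) with them, and that from control 0.12, against 0.41 with them. None was called. The sign of model over control, 0.09 (SE 0.26), differed in 5 of 18 alternatives.

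The make-up of the Id transcripts set control apart from both stressed groups. Id3 made 26.6 to 33.8% of the summed Id TPM in BXD, 31 to 33.5% in model and 46.1 to 55% in control. Id1 made 47.1 to 51% in BXD, 50.7 to 54.7% in model and 30 to 40.9% in control. Id4 made 7.94 to 9.81% in BXD, 4.76 to 5.22% in model and 4.43 to 5.6% in control, so its share, like its level, was highest in every BXD library. The summed Id level was 547 to 815 TPM in BXD, 457 to 584 TPM in model and 770 to 802 TPM in control, and BXD overlapped both other groups. TPM is not scaled by trimmed means, so differences between groups in it can depart from those in CPM. Id1 averaged 271 TPM in model and 291 TPM in control, while in CPM model lay above control. The summed level is therefore given for TPM only. The ratio of Id1 to Id3 was 1.88, 1.52 and 1.39 in BXD, 1.71, 1.54 and 1.63 in model, and 0.86, 0.544 and 0.887 in control. Every stressed library thus held more Id1 than Id3 and every control library less. Shares of 1 total are tied to each other, so these are 1 description and not several.

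**Figure D3:**
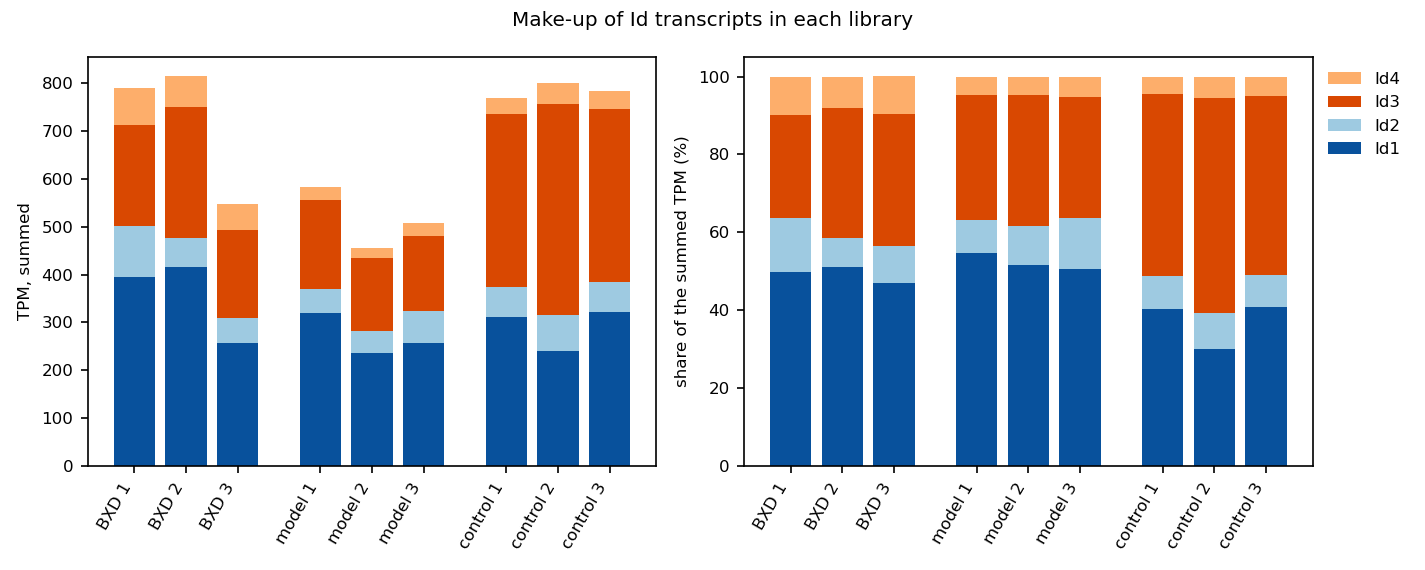
Summed TPM of Id1 to Id4 in each library on the left and the percent of that sum in each gene on the right. Id3 makes 46.1 to 55% in control libraries and at most 33.8% in BXD and model libraries, and Id4 makes at least 7.94% in BXD libraries.

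Endothelial markers were set beside Id1 and Id3 in the same way. Per 1000 TPM of 12 blood endothelium markers, Id1 stood at 229 to 292 TPM in BXD, 241 to 321 TPM in model and 162 to 198 TPM in control. Id3 stood at 156 to 176 TPM in BXD, 148 to 208 TPM in model and 224 to 298 TPM in control. The control libraries were thus below all others for Id1 and above all others for Id3 on this scale as well. The marker sum itself was 2437 to 3558 CPM in BXD, 1802 to 2747 CPM in model and 2379 to 3026 CPM in control, with overlap of every pair of groups. Of the 12 blood endothelium markers, 1 was called higher and 3 lower for model over control, beside 21.6% and 20.6% of all genes. Against smooth muscle markers, control did not stand apart for Id3. Per 1000 TPM of them, Id3 stood at 27.5, 47.4 and 35.9 TPM in BXD, 65.9, 111 and 65.4 TPM in model, and 73.7, 104 and 55.5 TPM in control. On that scale model overlapped control, and every BXD library lay below both.

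Inhibitory Smads compete with the signalling Smads for the activated receptor or for Smad4, and BMP itself induces them as a brake. Smad7, which also blocks TGF-beta receptors (gene 81516, chromosome 18, 71395830 to 71424164), had 40.6, 38.9 and 26.4 CPM in BXD libraries, 35.5, 46.8 and 31.4 CPM in model libraries, and 26.7, 23.4 and 26.4 CPM in control libraries. Model lay above control without overlap, by a log2 fold change of 0.57 (SE 0.19), and BXD overlapped both. That call was kept in 7 of 18 alternatives. The Smad7 differences of BXD were -0.10 from model and 0.47 from control, or 0.04 and 0.62 without BXD replicates 1 and 3, none of them called. Smad6, the more BMP-selective inhibitor (gene 367100, chromosome 8, 68897746 to 68967221), had 21.3, 24 and 19.4 CPM in BXD libraries, 24.1, 22.6 and 13.8 CPM in model libraries, and 19.4, 16.2 and 18.4 CPM in control libraries. The lowest BXD library and the highest control library both stood at 19.4 CPM to 3 digits, and model replicate 3 was the lowest of all 9. The Smad6 differences were 0.10, 0.26 and 0.16 for BXD over model, BXD over control and model over control (SE 0.20 each), and none was called in any of the 18 alternatives. Without BXD replicates 1 and 3 those of BXD were 0.25 from model and 0.42 from control, again not called.

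Bmp4, a ligand made by mesenchymal and smooth muscle cells (gene 25296, chromosome 15, 20776060 to 20791013), had 82.5, 91.5 and 56.2 CPM in BXD libraries, 43.3, 17.9 and 29 CPM in model libraries, and 51.7, 60.4 and 51.9 CPM in control libraries. The 3 model libraries were the lowest of the 9, and BXD overlapped control. The log2 fold change was 1.35 (SE 0.29), or 2.55-fold, for BXD over model, 0.49 (SE 0.28) for BXD over control and -0.86 (SE 0.29), or 1.82-fold lower, for model over control. The difference of BXD from model was not called by edgeR, was called by DESeq2 here and in the authors' deposited table, and was 1.60 without BXD replicates 1 and 3, where edgeR did not call it. That of BXD from control was then 0.75, not called. The call of model against control was lost in 6 of 18 alternatives, among them those without model replicate 2 or 3 and without any 1 control replicate.

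Per 1000 TPM of smooth muscle markers Bmp4 did not separate the groups. It stood at 10.5, 15.1 and 10.4 TPM in BXD, 13, 10.5 and 11.1 TPM in model, and 12.3, 17.4 and 9.19 TPM in control, with every pair of groups overlapping. Fat markers ran the other way from Bmp4 for BXD over model and model over control. The summed level of 10 of them was 7106 to 10603 CPM in BXD, 11356 to 21367 CPM in model and 4126 to 5126 CPM in control. For model over control 9 of the 10 were called higher, beside 21.6% of all genes. For BXD over control 5 of the 10 were called higher, beside 16.1% of all genes, where Bmp4 was also higher but not called. Of 8 nerve and glia markers, 5 were called lower, as Bmp4 was, and 1 higher for model over control, beside 20.6% and 21.6% of all genes. Their median log2 fold change there was -2.26. For BXD over model their median was 1.74, with 0 of 8 called by edgeR, 7 higher and 1 lower at an unadjusted p under 0.05, 3 called by DESeq2 and 0 by limma. For BXD over control 1 was called lower, beside 14.3% of all genes. Their summed level overlapped between all groups, at 397 to 678 CPM in BXD, 373 to 639 CPM in model and 392 to 690 CPM in control. The part of these cell types in the Bmp4 difference was not tested.

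Bmp2, a ligand that many cells switch on rapidly (gene 29373, chromosome 3, 126335963 to 126346771), had 13.2, 6.36 and 4.53 CPM in BXD libraries, 7.27, 7.44 and 7.9 CPM in model libraries, and 4.69, 3.9 and 4.84 CPM in control libraries. Model lay above control without overlap, by 0.75 (SE 0.35) on the log2 scale, a difference that edgeR did not call and the authors' deposited table did. BXD replicate 1 held the highest value of the 9 and BXD replicate 3 lay within the control range. The difference of BXD from model was 0.09 (SE 0.35) with all libraries and -0.25 without BXD replicates 1 and 3, so no direction can be given. That from control was 0.84 and 0.51, not called in either. The ratio of Bmp4 to Bmp2 in TPM was 10.8, 28.8 and 17.9 in BXD, 8.36, 4.49 and 6.59 in model, and 18.8, 27.8 and 17.3 in control. All model libraries had a lower ratio than any other library.

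Acvrl1, the type I receptor for BMP9 and BMP10 on endothelium (gene 25237, chromosome 7, 142769942 to 142787336), had 149, 188 and 178 CPM in BXD libraries, 170, 120 and 137 CPM in model libraries, and 291, 259 and 288 CPM in control libraries. All 6 stressed libraries lay far below the control libraries, and BXD overlapped model. The log2 fold change was 0.28 (SE 0.15) for BXD over model, -0.70 (SE 0.15), or 1.62-fold lower, for BXD over control and -0.98 (SE 0.15), or 1.97-fold lower, for model over control. Both differences from control were called in all 18 alternatives, and without BXD replicates 1 and 3 that of BXD was -0.56 and not called. The difference of BXD from model was then 0.41, also not called.

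The Acvrl1 difference was also present when it was set against endothelial markers. Per 1000 TPM of blood endothelium markers Acvrl1 stood at 39.8, 44.6 and 56.4 TPM in BXD, 48.5, 49.4 and 43.6 TPM in model, and 77.9, 80.3 and 76.5 TPM in control. Per 1000 TPM of lymphatic endothelium markers it stood at 70.1, 91.5 and 106 TPM in BXD, 105, 108 and 65.9 TPM in model, and 202, 180 and 197 TPM in control. On both scales every control library lay above every stressed library. Both scales divide by a plain sum, which the most abundant markers set most. The markers themselves did not move as 1 group. For model over control 1 of 12 blood endothelium markers was called higher and 3 lower, and 1 of 9 lymphatic markers higher and 3 lower. Of all genes 21.6% were called higher there and 20.6% lower. The called markers are named here after their values were seen. Lower were the blood endothelium markers Aplnr at -3.26, Erg at -1.28 and Esam at -0.44, and the lymphatic markers Prox1 at -1.83, Gja4 at -1.21 and Foxc2 at -1.01, so 5 of these 6 were lower by more than Acvrl1. Higher were Sox17 at 0.58 and Lyve1 at 1.45. The part of endothelial cells in the Acvrl1 difference was not tested.

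Bmpr2, the type II receptor mutated in heritable pulmonary arterial hypertension of humans (gene 140590, chromosome 9, 66568074 to 66683020), had 178, 230 and 211 CPM in BXD libraries, 217, 188 and 192 CPM in model libraries, and 160, 146 and 159 CPM in control libraries. The 6 stressed libraries lay above the control libraries, and BXD overlapped model. The log2 fold change was 0.05 (SE 0.12) for BXD over model, 0.41 (SE 0.12) for BXD over control and 0.36 (SE 0.12) for model over control. These differences from control were called in 8 and 7 of the 18 alternatives. Without BXD replicates 1 and 3 those of BXD were 0.21 from model, not called, and 0.58 from control, called. In TPM, which is not scaled by trimmed means, Bmpr2 averaged 28.3 ± 3.95 in BXD, 24.5 ± 2.89 in model and 25.9 ± 0.405 in control. On that unit Bmpr2 was thus not higher in model than in control. The ratio of Acvrl1 to Bmpr2 in TPM was 2.21, 2.15 and 2.22 in BXD, 2.09, 1.69 and 1.89 in model, and 4.72, 4.66 and 4.72 in control. The spread of this ratio within the BXD and control groups was small beside the gap between them.

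**Figure D4:**
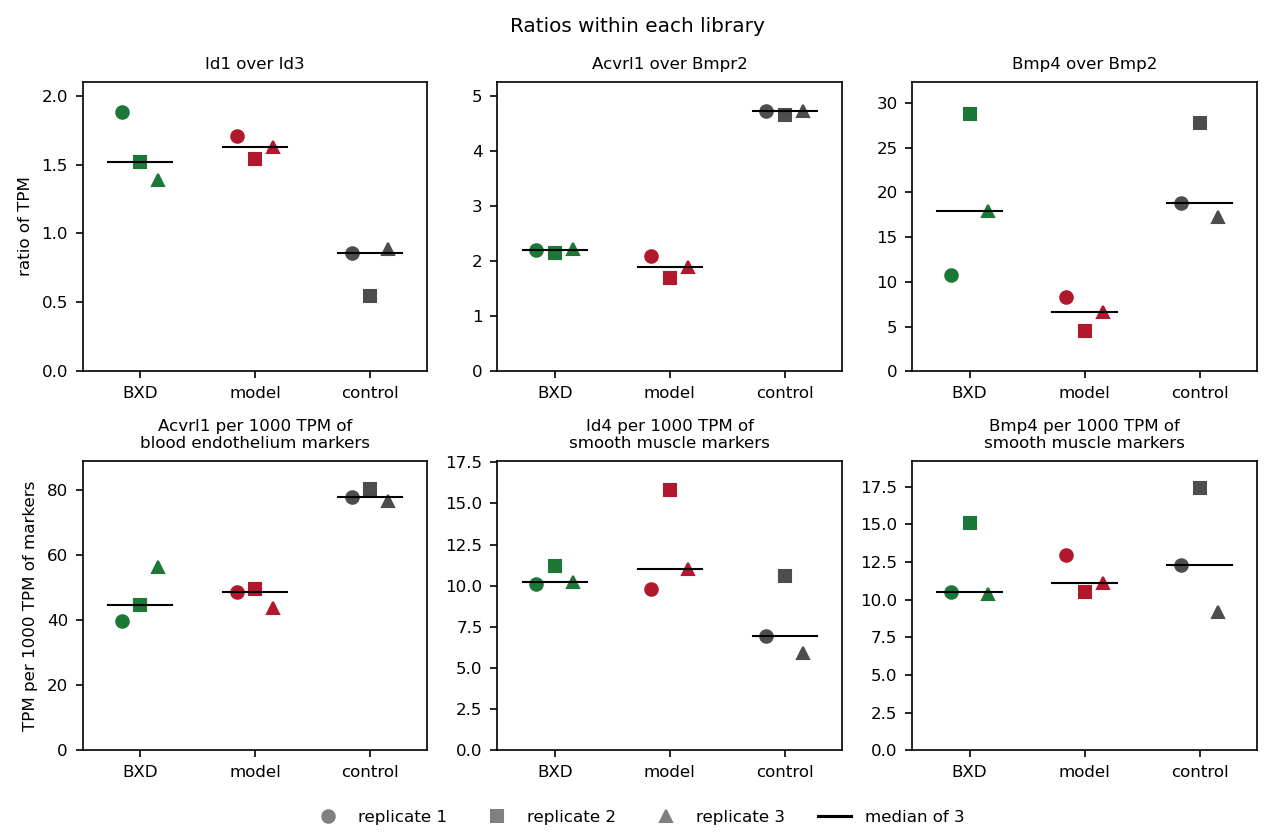
Ratios within each library, with the median of 3 as a line: TPM of a pair of genes in the upper row, and TPM of 1 gene per 1000 summed TPM of a marker list in the lower row. Acvrl1 over Bmpr2 is 4.66 to 4.72 in control and at most 2.22 in the other libraries, while Id4 and Bmp4 set against smooth muscle markers overlap between BXD and model.

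The other genes of the pathway were taken from 7 lists by role with 68 genes, of which 55 passed the filter. For BXD over model edgeR called 0 of 55, with 20 at an unadjusted p under 0.05, 14 of them higher in BXD and 6 lower. The share of all genes at that unadjusted threshold is not given, so this count is not read as a shift of the pathway. DESeq2 called 7 and limma on log2(FPKM + 0.1) called 0. For BXD over control 14 of 55 were called, 9 higher and 5 lower, or 25.5% beside 30.3% of all genes. For model over control 21 of 55 were called, 10 higher and 11 lower, or 38.2% beside 42.2% of all genes. Both shares were close to those of all genes. The split into higher and lower depended on the scaling. With scaling by library size alone 6 were called higher and 11 lower for BXD over control, and 5 higher and 19 lower for model over control. Upper quartile scaling gave 8 and 8, and 7 and 17. Without control replicates 1, 2 and 3 the pathway genes called for BXD over control numbered 8, 5 and 7, in place of 14. Not all of the 8 were among the 14. The median log2 fold change of the 55 genes was 0.18, 0.01 and -0.18 for BXD over model, BXD over control and model over control, beside -0.0059, -0.022 and -0.014 over all genes.

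Among other ligands, 2 of 7 tested rose in model over control and 0 fell, beside 21.6% of all genes called higher and 20.6% lower. Gdf5, a BMP family ligand of joint formation, averaged 6.51 ± 1.56 CPM in model libraries and 2.52 ± 0.602 CPM in control libraries (SD, n = 3), higher by 1.37 on the log2 scale (SE 0.29, edgeR adjusted p = 0.00624). Bmp7, a ligand that promotes brown fat formation in mice, averaged 5.9 ± 0.561 CPM in model libraries and 3.9 ± 0.323 CPM in control libraries (log2 fold change 0.60, SE 0.19, edgeR adjusted p = 0.031), a call that was lost under upper quartile and library size scaling and in 6 of 9 fits that left out 1 library, each of the 3 control libraries, model replicates 1 and 3, and BXD replicate 2. In BXD over control Gdf5 also rose, by 1.06 (edgeR adjusted p = 0.0236), and Bmp3, an antagonistic BMP, fell to 0.311 ± 0.143 CPM in BXD, against 0.893 ± 0.0873 CPM in control (edgeR adjusted p = 0.0453). The Gdf5 call in BXD was lost without control replicate 2 or 3 or BXD replicate 1, and the Bmp3 call was kept in only 1 of 9 fits that left out a library, the one without model replicate 2. Gdf2 and Bmp10, which encode the Acvrl1 ligands BMP9 and BMP10 and were picked out after their values were seen, had 0 to 1 and 0 to 6 estimated counts per library and were not tested.

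Receptors moved in both directions. In model over control 1 of 9 tested rose and 2 fell, beside 21.6% of all genes called higher and 20.6% lower. With scaling by library size alone 1 rose and 4 fell. Bmpr1a, the type I receptor for BMP2 and BMP4, rose by 0.67 (SE 0.12, edgeR adjusted p = 0.00282), with means of 39.3 ± 2.86 CPM in model libraries and 24.7 ± 1.64 CPM in control libraries (SD, n = 3). Acvr1, a type I receptor also called ALK2, fell by 0.67 (SE 0.14, edgeR adjusted p = 0.00513), to 27.6 ± 4.22 CPM in model, against 43.9 ± 0.561 CPM in control. The type II receptor Acvr2b fell by 0.93 (SE 0.19, edgeR adjusted p = 0.00524). Thus 2 type I receptors of the pathway, Acvrl1 and Acvr1, were lower in model while Bmpr1a was higher. In BXD over control 3 of 9 were called higher and 1 lower, beside 16.1% and 14.3% of all genes. The lower gene was Acvr2b, which was named there after its value was seen. That Acvr2b call was kept in 4 of 9 fits that left out a library and lost without any 1 control library, without BXD replicate 1 or 2 and without BXD replicates 1 and 3. Bmpr1a rose by 0.57 (edgeR adjusted p = 0.0079), and the coreceptor Rgma rose to 59.7 ± 10.2 CPM in BXD libraries, against 35 ± 4.08 CPM in control libraries (edgeR adjusted p = 0.0175). The Rgma call was lost without control replicate 1 or 2. The other was Hfe2, the coreceptor hemojuvelin of skeletal muscle and liver, named after its values were seen. Its level was 32.9, 0.314 and 20.4 CPM in BXD, so it lay with the striated muscle transcripts of replicates 1 and 3.

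Of 4 signalling Smads, 1 was called in model over control and 2 in BXD over control, beside 42.2% and 30.3% of all genes. Smad4, the common partner, rose in model over control by 0.44 (SE 0.09, edgeR adjusted p = 0.00439) and in BXD over control by 0.39 (edgeR adjusted p = 0.0109), with 88.1 ± 6.36 CPM in BXD, 91.8 ± 0.91 CPM in model and 67.5 ± 1.74 CPM in control libraries (SD, n = 3). Both Smad4 calls were lost with scaling by library size alone, where the values were 0.17 and 0.17. Smad9, a BMP-responsive Smad, had 0 estimated counts in all BXD libraries, 0, 0 and 18 in model libraries, and 27, 35 and 25 in control libraries, and it was called lower in BXD than in control (edgeR adjusted p = 0.0257). That call was lost without any 1 control library and without BXD replicate 2 or 3. Smad1 averaged 103 ± 39.6 CPM in BXD libraries and 65 ± 17.7 CPM in model libraries, with an adjusted p of 0.224 in edgeR.

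Of secreted antagonists and modulators, more fell than rose in model over control. In model over control 5 of 14 tested fell and 1 rose, beside 20.6% of all genes called lower and 21.6% higher. The median log2 fold change of the 14 was -0.58. Sostdc1, an antagonist of BMP and Wnt signals, fell by 2.72 (SE 0.47, edgeR adjusted p = 0.00256), with 3.24, 3.05 and 2.05 CPM in model and 30.3, 14.6 and 9.95 CPM in control. Gremlin 1 (Grem1), which traps BMP2 and BMP4, had 5.78, 3.23 and 3.8 CPM in model libraries and 9.44, 10.7 and 22.1 CPM in control libraries (edgeR adjusted p = 0.0153). Bmp1, a protease that releases BMPs from chordin, fell by 0.78 (SE 0.16, edgeR adjusted p = 0.00573). Fstl3, which binds activins and was named after its value was seen, fell by 1.16 (SE 0.40), and the 1 that rose, named in the same way, was Bmper, an endothelial BMP modulator, at 0.59 (SE 0.18). The Grem1 call was lost without control replicate 3 or model replicate 2 or 3, Fstl3 in 6 of 9 fits that left out a library and Bmper in 5. For BXD over model Grem1 had the smallest p of the list, at 26.2, 15.6 and 9.36 CPM in BXD libraries, a log2 fold change of 2.00 (SE 0.46) that was not called (edgeR adjusted p = 0.099). In BXD over control 1 of 14 was called, beside 30.3% of all genes. It was Sostdc1, which fell by 1.88 (edgeR adjusted p = 0.0132).

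Of inhibitors inside the cell or at its membrane, some rose in both stressed groups. In model over control 4 of 7 rose and 0 fell, beside 21.6% of all genes called higher and 20.6% lower. The median log2 fold change of the 7 was 0.89, or 0.60 with scaling by library size alone, where 3 rose and 1 fell. Ppm1a, a phosphatase that switches off Smads, rose by 1.03 (SE 0.14, edgeR adjusted p = 0.00102), Tob1, a repressor of Smad activity, by 1.57 (SE 0.29, edgeR adjusted p = 0.00361) and Skil, a Smad corepressor also called SnoN, by 1.00 (SE 0.20, edgeR adjusted p = 0.00516). Tob1 ranged widely in model, at 80.9, 179 and 97.3 CPM, against 50.6, 33.5 and 36 CPM in control. The other was Smurf1, a ubiquitin ligase for BMP Smads, at 0.70 (SE 0.18), named after its value was seen. In BXD over control 3 of 7 rose, beside 16.1% of all genes called higher. They were Smurf1 by 0.71, Ppm1a by 0.79 (edgeR adjusted p = 0.00405) and Skil by 1.00 (edgeR adjusted p = 0.0071). Smurf1 lost its call in BXD over control without control replicate 1 or 2. The inhibitory Smads Smad7 and Smad6, described above, are members chosen with these comparisons known, so they are not added to these counts. For model over control Smad7 was called higher, a call kept in 7 of 18 alternatives, and Smad6 was not called.

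Of known targets of BMP other than the Id genes, 4 of 11 fell and 0 rose in model over control, beside 42.2% of all genes called and 20.6% called lower. The median log2 fold change of the 11 was -0.39. Msx1, a homeobox factor, fell by 1.48 (SE 0.23, edgeR adjusted p = 0.00158), to 2.94 ± 0.424 CPM in model, against 8.24 ± 1.43 CPM in control (SD, n = 3). Atoh8, a factor that BMP9 induces through Acvrl1, fell by 1.42 (SE 0.22, edgeR adjusted p = 0.00181), to 4.47, 3.14 and 3.11 CPM in model, against 8.94, 9.22 and 10.6 CPM in control. Hey2, an endothelial repressor shared with Notch, fell by 0.81 (SE 0.23, edgeR adjusted p = 0.0204), and Runx2, a factor of bone and cartilage named after its value was seen, by 1.17 (SE 0.39). Hey2 lost its call without control replicate 1 or model replicate 1 or 2, and Runx2 without control replicate 2 or 3 or model replicate 1 or 2. For BXD over model Atoh8 had the smallest p of the targets, at 7.68, 5.41 and 7.47 CPM in BXD, a log2 fold change of 0.94 (SE 0.23) that was not called (edgeR adjusted p = 0.104). In BXD over control Msx1 fell by 0.77 (edgeR adjusted p = 0.0265), and Hamp, the iron hormone hepcidin, rose to 5.47 ± 2.45 CPM in BXD, against 1.51 ± 1.01 CPM in control (edgeR adjusted p = 0.0414). The Hamp call was kept in only 1 of 9 fits that left out a library, the one without BXD replicate 3, and the Msx1 call in 5 of 9, lost without control replicate 2 or 3 or BXD replicate 2 or 3. Msx1 and Atoh8 were thus lower in model beside Id3, while Id1 was not.

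E proteins, the partners that Id proteins bind, were tested as 3 genes, of which 1 was called in model over control, beside 42.2% of all genes. Tcf12 rose in model over control by 0.41 (SE 0.12, edgeR adjusted p = 0.0216), with means of 113 ± 3.47 CPM in model libraries and 85.4 ± 2.47 CPM in control libraries (SD, n = 3). With scaling by library size alone the Tcf12 value was 0.14 and not called, and the call was lost without any 1 control library and without model replicate 1 or 3. In BXD over model and BXD over control edgeR called 0 of the 3, with 1 of 3 at an unadjusted p under 0.05 in each. Tcf3, the gene of E12 and E47, averaged 26.3 ± 6.47 CPM in BXD libraries and 38.6 ± 2.72 CPM in control libraries, with an adjusted p of 0.0621 in edgeR.

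**Figure D5:**
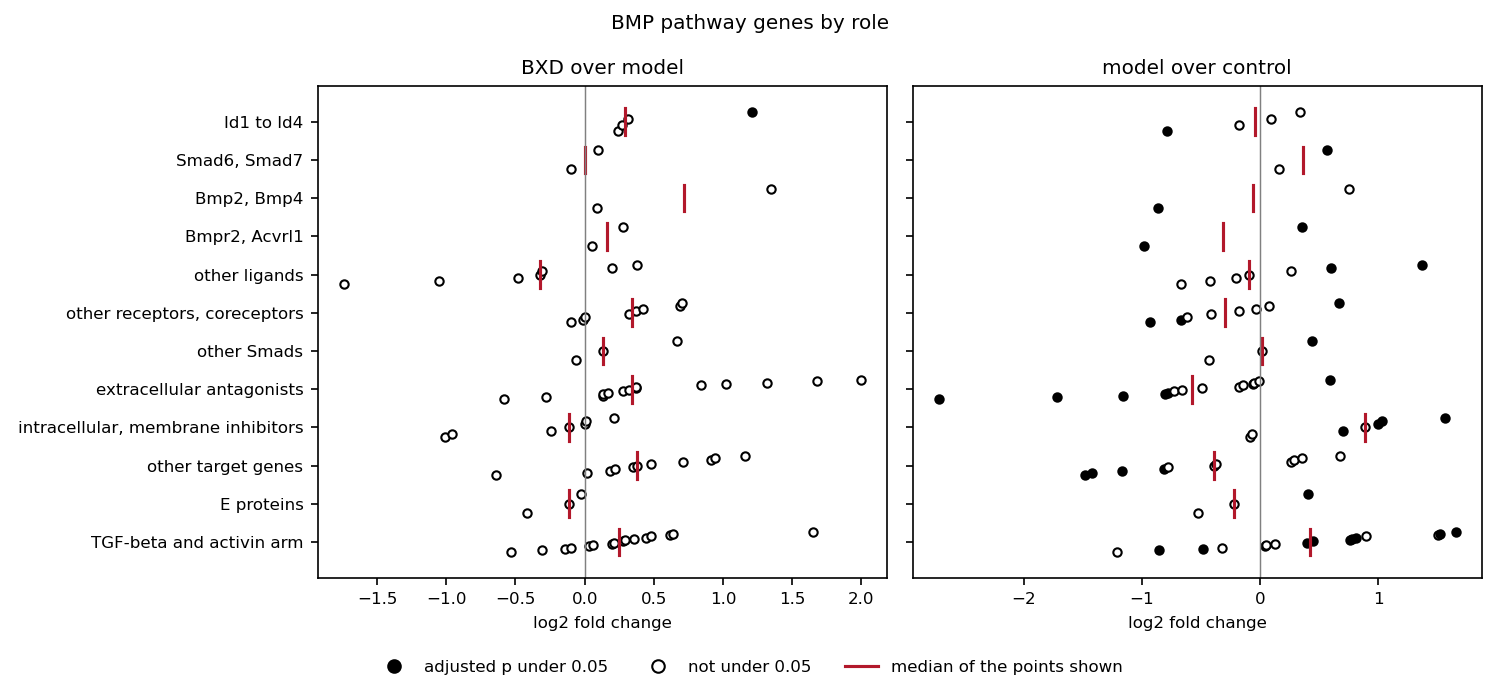
Log2 fold change of each tested pathway gene by role, for BXD over model on the left and model over control on the right, with filled points where the adjusted p over all genes was under 0.05. Hfe2 and Smad9, which were at 0 counts in several libraries, are not drawn. In model over control the intracellular and membrane inhibitors include 4 filled points, all above 0. The extracellular antagonists and modulators include 5 below 0 and 1 above.

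The related arm of TGF-beta and activin, which signals through Smad2 and Smad3, was set beside the BMP genes as a list of 16. In BXD over model edgeR called 0 of 16, with 4 at an unadjusted p under 0.05, DESeq2 called 1 and limma on log2(FPKM + 0.1) called 0. In BXD over control 7 rose and 1 fell, or 50% beside 30.3% of all genes. In model over control 7 rose and 2 fell, or 56.2% beside 42.2% of all genes. That split depended on the scaling, with 5 higher and 4 lower by library size alone and 4 and 4 by limma on log2(FPKM + 0.1), where the median log2 fold change was 0.04, against 0.43 in edgeR. Of the 8 calls for BXD over control, those of Inhbb and Acvr1b were kept without BXD replicates 1 and 3. Inhbb, a subunit of activin B, rose by 2.16 in BXD over control (SE 0.26, edgeR adjusted p = 0.00101) and by 1.52 in model over control (SE 0.26, edgeR adjusted p = 0.00244), with 61.1 ± 12.8 CPM in BXD, 39.3 ± 9.2 CPM in model and 13.7 ± 4.08 CPM in control libraries (SD, n = 3). Acvr1c, the receptor ALK7 of fat cells, rose by 1.66 in model over control (edgeR adjusted p = 0.002), and the coreceptor Tgfbr3 by 0.76 (edgeR adjusted p = 0.00245). Acvr1b, the activin receptor ALK4, rose by 0.93 in BXD over control (SE 0.16, edgeR adjusted p = 0.00327). The genes that fell, named after their values were seen, were Smad2, at -0.42 (SE 0.10) in BXD over control and -0.48 (SE 0.10) in model over control, and the ligand Tgfb3, at -0.85 (SE 0.21) in model over control. Inhba, a subunit of activin A, had the smallest p for BXD over model, with 37.8, 72.5 and 22.3 CPM in BXD and 17.6, 8.24 and 16.2 CPM in model (edgeR adjusted p = 0.125).

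Genes whose profile over the 9 libraries was most like that of an Id gene were found by the root mean square difference of centred log2 CPM, among the 14035 genes whose mean reached 1 CPM. Nearest to Id1 were Epas1, the hypoxia factor HIF-2 alpha of endothelium, at 0.115, Spred1, an inhibitor of Ras signalling, at 0.118, and Flt1, a VEGF receptor, at 0.119. Nearest to Id4 were Synm, the intermediate filament protein synemin of muscle, at 0.139, Usp13 at 0.170 and Ifi27l2b at 0.183. Synm had 270, 251 and 232 CPM in BXD libraries, 136, 114 and 125 CPM in model libraries, and 127, 133 and 153 CPM in control libraries, so that, as for Id4, every BXD library lay above the other 6. Nearest to Id3 were Zswim3 at 0.123, Fam217b at 0.128 and Gab1, a docking protein of growth factor receptors, at 0.129. Nearest to Id2 were Zfp217, Spata2L and Mslnl, at 0.122, 0.136 and 0.152. These differences describe likeness in 9 libraries that share 3 groups, with no test.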

How the data were processed

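Per the labels' protocols, poly(A) RNA was reverse transcribed and sequenced on an Illumina machine, giving 9 libraries. Bowtie2 2.2.5 and HISAT2 2.2.4, with the build Rnor_6.0, are listed per the submitters' processing notes, and the counting tool and strandedness are not given in the sources used here, so reads of overlapping or antisense genes cannot be told apart. The authors deposited estimated counts for 18964 genes, of which 88.8% were whole within a tolerance of 1e-09, with TPM and FPKM values beside them, per the file headers. The authors also deposited their own log2 fold changes, p-values and q-values, computed with DESeq2 per the file headers, and each value taken from there is credited to that table. Left unused were 45 other per-sample columns. Libraries were assigned to groups by their titles. Gene coordinates on Rnor_6.0 were read from the count table, with chromosome numbers derived from its cytogenetic bands.

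Estimated counts were rounded to whole numbers, filtered with filterByExpr, which left 14643 genes, and scaled by TMM. A single robust quasi-likelihood fit (edgeR 4.0.16, R 4.3.3) covered all 9 libraries, with 1 term for the group and 6 residual degrees of freedom, and p-values were adjusted by Benjamini-Hochberg over all genes tested. The biological coefficient of variation was 23.3%. SEs were derived from the log2 fold change and the F statistic. Alternatives used DESeq2 1.42.0, limma 3.58.1 on log2(FPKM + 0.1) and log2(FPKM + 1), other scalings, no filter, a replicate block and each library left out. The steps were tested on simulated data.

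The members and all gene lists were chosen with earlier results of these data known. Named genes were the 10 members, up to 3 called genes of each list with the smallest p for model over control and up to 2 for the other comparisons, the gene with the smallest p where 0 were called, and the 3 nearest profiles of each Id gene. Replicates of a group differed beyond sampling noise. The values of 1 called gene of the pathway lists, which the counts include, are not reported here.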

Additional observations from a re-analysis of the deposited data

How the results depend on the processing

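Called with all libraries, the genes passing for BXD over model numbered 9, with 1108 by DESeq2, 16 without a filter on low counts, 25 and 29 by limma on log2(FPKM + 0.1) and log2(FPKM + 1), 1 with only the 2 groups compared, 1 with the replicate block, 1 to 154 with 1 library left out, and 4 without BXD replicates 1 and 3, a setting chosen after the data were seen. For BXD over control the count was 4444, with 2728 to 4775 with 1 library left out and 2352 without BXD replicates 1 and 3. For model over control it was 6177, with 4317 to 6890 with 1 library left out. Of the 10 members, 5 were called for model over control, with 3 under upper quartile scaling, 2 with the replicate block and 2 to 6 with 1 library left out. For BXD over model 1 member was called, with 2 by DESeq2, 0 with only the 2 groups compared, 0 with the replicate block, 0 without BXD replicates 1 and 3, and 0 to 1 with 1 library left out. For BXD over control 4 were called, with 2 to 5 with 1 library left out and 2 without BXD replicates 1 and 3. Of the other pathway genes, 0 were called for BXD over model, with 7 by DESeq2 and 0 to 2 with 1 library left out. For BXD over control 14 were called, with 9 under the replicate block, 5 to 15 with 1 library left out and 4 without BXD replicates 1 and 3. For model over control 21 were called, and 15 to 24 with 1 library left out. The cause of these shifts was not tested, apart from the smaller number of libraries in the fits that leave some out. The replicate numbers were not taken as a pairing, since deviations of same-numbered libraries correlated between -0.424 and 0.072, and under the block Id4 for BXD over model was 1.20 and Bmp4 for model over control -0.90, both not called. Acvr1b was the 1 named gene whose called direction turned: 0.45 for model over control, -0.04 by limma on log2(FPKM + 0.1) and -0.04 on log2(FPKM + 1).

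Scaling by library size alone moved the median log2 fold change of all genes to -0.28 for model over control, and upper quartile scaling to -0.14, so small differences from control are relative to the scaling. Among the members, Id2 for model over control and Smad6 for model over control changed sign in 5 and 3 of 18 alternatives and were called in none. Called in all 18 were Id3 and Acvrl1 for model over control and Acvrl1 and Id4 for BXD over control. Without BXD replicates 1 and 3, a fit outside the 18, the values for BXD over control were -0.56 for Acvrl1 and 1.00 for Id4. All these fits reuse the same libraries, and the members were chosen with these comparisons known, so nothing is read from these calls. With 3 libraries a group, a difference that was not called is not shown to be absent.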
